A study of Mus musculus with 2 samples.

Results

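Genes that carry new secretory proteins into and out of the endoplasmic reticulum (ER) were examined in the livers of ad libitum fed and calorie-restricted mice. They comprised 58 listed genes in 6 role groups, namely signal recognition and translocon, signal peptidase, oligosaccharyltransferase, COPII coat, COPI coat, and cargo receptors. A gene was taken through the probe sets that the platform annotation assigns to its symbol alone. Of the 58 genes, 57 had such a probe set, 125 probe sets in all, out of 18193 genes and 34945 probe sets on the array. The exception was Sec61g, the gamma subunit of the translocon, for which no value is given.

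The animals were male wild-type C57BL/6J mice, an inbred laboratory strain, housed singly and put on their diets at 8 weeks of age. The AL group ate without limit for 12 weeks, and the CR group received 20% less food for 1 week and 40% less for the next 11 weeks. The mice were 5 months old at the end, and equal amounts of total liver RNA from 3 mice of each group were combined into 1 pool and run on 1 Affymetrix array. Pooling leaves 1 value per diet, so the variation from mouse to mouse is unknown and no test was made, and each difference compares these 2 pools only. A probe set was counted as measured when its intensity reached 7.38, the median of all values, on at least 1 array. Differences are log2 intensity of CR minus that of AL, so that -1 is a 2-fold lower intensity in CR, and a gene is represented by the probe set with its highest mean log2 intensity unless stated otherwise.

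A protein destined for secretion is recognised while it is still being made. The signal recognition particle binds the emerging signal peptide, docks the ribosome at its receptor on the ER, and the Sec61 channel takes the chain across the membrane. Signal peptidase cuts the signal peptide off, and oligosaccharyltransferase (OST) moves a preassembled sugar tree onto asparagine residues. COPII-coated vesicles then carry folded cargo to the Golgi, COPI-coated vesicles bring escaped ER proteins and receptors back, and cargo receptors select what enters each. Hepatocytes, which make most plasma proteins, are among the cells that use this route most heavily.

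Most of these genes had lower intensity in the CR pool. Of the 56 measured genes, 49 lay below 0 (87.5%, against 52.1% of all 12644 measured genes) and 7 above. Their median difference was -0.59, against -0.02 over all measured genes. At least 2-fold lower were 11 genes, or 19.6% of the 56, where the background was 2.79% of all measured genes. None was at least 2-fold higher, against a background of 1.80%. The remaining 45 lay within 2-fold, and the full range ran from -1.81 for Ssr4 to 0.32 for Srp9. At a threshold of 1.5-fold, 29 of the 56 genes were lower, against 9.49% of all measured genes, and none was higher, against 6.76%. The background was higher among brighter genes, at 4.25% for 2-fold lower and 12.5% for 1.5-fold lower over the 7581 genes that reached the 75th percentile of intensity, a limit that 54 members passed, the 11 among them. The 2-fold count was 6 with the mean of a gene's measured probe sets (2.31% of all genes under that choice), and 6 when 16 was added to every intensity before taking log2 (1.23% of all genes). Spcs3 was the single gene that both of these sets held. In bulk liver, fewer cells of a type and less RNA per cell cannot be told apart.

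**Figure D1:**
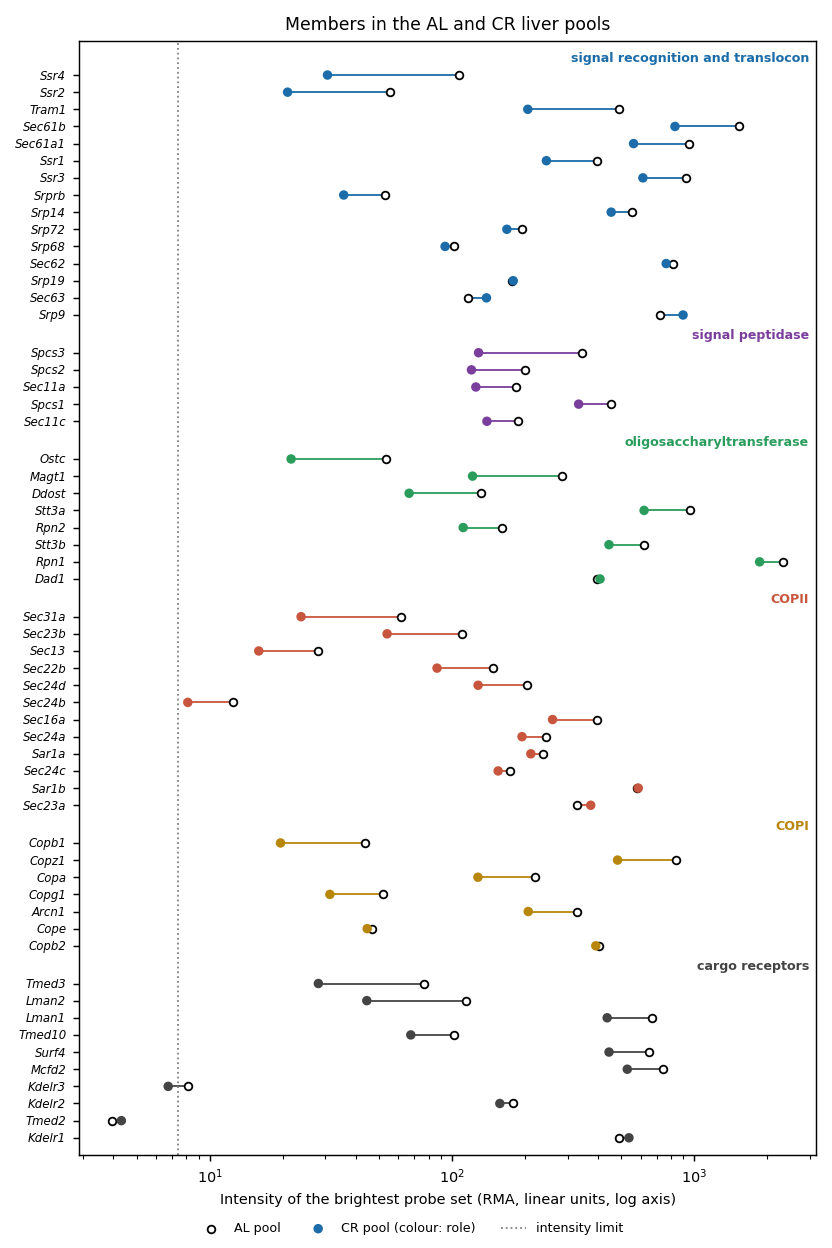
Intensity of the brightest probe set of each of the 57 genes with a value, on a log axis, with 1 row per gene grouped by role. Open points are the AL pool and filled points the CR pool, 1 array each, and the dotted line is the intensity limit of 7.38. In most rows the CR point lies to the left of the AL point, furthest for Ssr4.

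Probe sets of 1 gene give a view of technical agreement, as do the hybridisation control spikes, which differed between the arrays by 0.33 to 1.32. The dap, lys, phe and thr control spikes, which no scaling here used, were higher in CR by 0.82 to 1.97. Among the 33 members with 2 or more measured probe sets the median SD of their differences was 0.41, against 0.29 over 4924 such genes of the array. Both signs occurred in 11 of the 33, or 33.3%, against 52.7% of the 4924. Genes whose differences lie away from 0 show both signs less often at any precision, so this share does not measure agreement. Over single probe sets, 92 of 112 measured ones (82.1%) lay below 0 and 18 (16.1%) were at least 2-fold lower, against 52.2% and 2.97% of the 20316 measured probe sets of the array. Of the 11 genes counted as 2-fold lower, 5 rested on 1 measured probe set, 4 had several that were all lower, and 2, Ssr4 and Tmed3, had another probe set at or above 0. A further 7 genes that were within 2-fold had a dimmer probe set at least 2-fold lower.

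**Figure D2:**
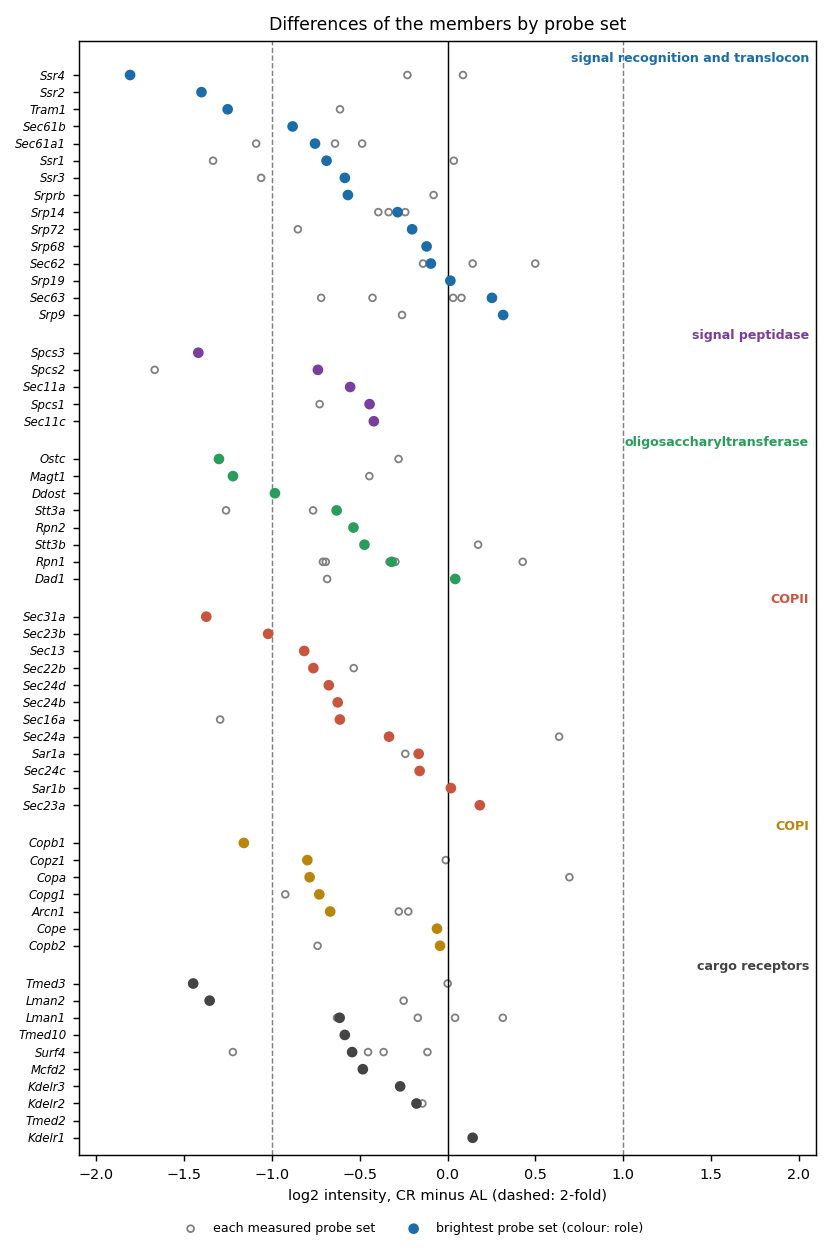
Difference in log2 intensity, CR minus AL, for every measured probe set of each gene (open points), with the brightest probe set filled and coloured by role. Dashed lines mark 2-fold, and Tmed2 has no point because its probe set was below the intensity limit. Of 112 probe sets, 92 lie to the left of 0, and genes such as Ssr4, Rpn1 and Copa show how far probe sets of 1 gene can lie apart. The probe sets of these genes to the right of 0 were dim, with no intensity above 16.1.

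The signal recognition particle itself differed little between the pools. Its measured components and the receptor subunit Srprb had a median difference of -0.16 over 6 genes. None was at least 1.5-fold lower or higher, which over 6 genes is near the backgrounds of 9.49% and 6.76%. The other receptor subunit, Srpr, was not a member and stood at -0.82 (306 and 174). Srp9 and Srp14, which together halt elongation, stood at 722 in AL against 899 in CR (0.32) and at 553 against 454 (-0.29). The second Srp9 probe set stood at -0.26, so the gene had no single direction, whereas all 4 Srp14 probe sets were lower in CR, from -0.40 to -0.24. Srp19, an assembly factor for the particle, had 177 and 179 (0.02), and Srp68, a large RNA-binding subunit, 102 and 93.6 (-0.12). Its partner subunit Srp72 had 194 and 168 (-0.20), with a dimmer probe set at -0.85. Srprb, which anchors the receptor in the ER membrane, had 53.0 in AL and 35.7 in CR (-0.57), and its other measured probe set stood at -0.08.

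The channel and the proteins that surround it were lower by more. The translocon genes had a median of -0.76 over 9 measured genes, 8 of them below 0 and 3 at least 2-fold lower. Sec61a1, which forms the pore, stood at 948 in AL against 562 in CR (-0.76), and its 4 measured probe sets were all lower, from -1.09 to -0.49. Sec61b, the small beta subunit, had 1535 and 832 (-0.88) on its single probe set. The auxiliary factors Sec62 and Sec63, which serve chains that enter after synthesis, stood apart from the channel subunits, at -0.10 (818 and 766) and 0.25 (116 and 139). Probe sets of both lay on either side of 0, from -0.14 to 0.50 for Sec62 and from -0.72 to 0.25 for Sec63.

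All 4 subunits of the TRAP complex, which sits beside the channel and helps some signal peptides to open it, were lower on their brightest probe sets. Ssr4 had 107 in AL and 30.6 in CR (-1.81), a 3.50-fold difference and the largest of any member. Its dimmer probe sets, however, stood at 0.09 and -0.23, so this value rests on 1 probe set. Ssr2 had 55.4 and 21.0 (-1.40) on a single probe set. Ssr1 and Ssr3 stood at -0.69 (396 and 245) and -0.59 (921 and 614). A dimmer Ssr3 probe set was lower, at -1.06. Those of Ssr1 ran from -1.34, where the CR value of 5.67 was below the intensity limit, to 0.03. Tram1, a membrane protein that contacts the entering chain, had 489.8 and 206 (-1.25), and its other probe set agreed in direction at -0.61. Signal recognition and translocon genes together had a median of -0.57 over 15 measured genes, which was -0.24 over 12 genes without the probe sets that can match several transcripts.

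Every signal peptidase subunit was lower in the CR pool. The 5 genes had a median of -0.56, and all 7 of their measured probe sets lay below 0. Spcs3, a glycosylated subunit that the enzyme needs for activity, had 344 in AL and 129 in CR (-1.42). Spcs2, which ties the complex to the Sec61 channel, had 201 and 120.3 (-0.74), and an almost equally bright probe set gave 198 and 62.4 (-1.67). The catalytic subunits Sec11a and Sec11c, which stand in for each other in separate forms of the enzyme, had similar differences of -0.56 (184 and 125) and -0.42 (187 and 139). Spcs1, a non-catalytic subunit, had 454 and 333 (-0.44), with another probe set at -0.73.

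OST subunits were lower in 7 of 8 cases, with a median of -0.58 and 2 genes at least 2-fold lower. The enzyme exists as a form built on Stt3a, which works on chains as they leave the channel, and a form built on Stt3b, which reaches sites that the first form missed. Stt3a had 962 in AL and 621 in CR (-0.63), with dimmer probe sets at -1.26 and -0.77, the latter below the intensity limit in CR. Stt3b had 617 and 444 (-0.47), but its second probe set stood at 0.17. Ostc, an adaptor of the Stt3a form, had 53.4 and 21.7 (-1.30, other probe set -0.28). Magt1, the oxidoreductase subunit of the Stt3b form, had 284 and 122 (-1.22, other probe set -0.45). The largest negative values among the members thus included 1 specific subunit of each form, each within 2-fold on its other probe set. Of OST genes outside the members, Ost4 stood at -0.91, Tmem258 at -0.28, Krtcap2 at -0.27 and Tusc3, near the intensity limit, at -0.02.

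The shared OST subunits covered a wider range. Ddost, a scaffold subunit, had 132 and 66.5 (-0.98), just inside 2-fold, and Rpn2, another structural subunit, had 161 and 111 (-0.54). Rpn1, a subunit that holds substrate near the catalytic centre, had 2321 and 1861 (-0.32). Its 6 measured probe sets ran from -0.71 to 0.43, and 5 of them were below 0. Dad1, a small subunit whose loss destabilises the complex, was the exception in the group at 0.04 (396 and 408), although its dimmer probe set gave 165 and 102 (-0.69). Without the probe sets that can match several transcripts the group's median was -1.10 over 6 genes.

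COPII genes were lower for parts of the outer cage and for some but not all inner-coat paralogues. The 12 measured genes had a median of -0.62, with 10 below 0 and 2 at least 2-fold lower. Sec31a, which forms the outer cage with Sec13, had 61.8 in AL and 23.8 in CR (-1.37), and Sec13 had 28.1 and 15.9 (-0.82), each on 1 measured probe set. Sec16a, which marks ER exit sites, had 398 and 260.1 (-0.61), with a dimmer probe set at -1.30. The paralogues of Sec23, the inner-coat subunit that stimulates Sar1, lay on opposite sides of 0. Sec23b had 109.6 and 54.0 (-1.02), whereas Sec23a had 329 and 374 (0.18), each on 1 probe set.

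The cargo-binding Sec24 paralogues were all below 0 on their brightest probe sets but by different amounts. Sec24d had 205 and 128 (-0.68) and Sec24b 12.5 and 8.12 (-0.63), the latter near the intensity limit. Sec24a had 245 and 194 (-0.33) and Sec24c 173 and 155 (-0.16). A dimmer Sec24a probe set was higher in CR, at 0.63. The Sar1 GTPases, which start coat assembly, were close to 0, with Sar1a at -0.17 (237 and 212) and Sar1b at 0.02 (579.7 and 587). Sec22b, a fusion SNARE that rides on these vesicles, had 147 and 86.7 (-0.76), and its other probe set gave -0.54.

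COPI coat genes had the most negative median of the 6 groups, -0.73, with all 7 genes below 0. This place in the order did not hold when all measured probe sets were averaged, where the median was -0.39. Copb1, the beta subunit, had 43.8 in AL and 19.6 in CR (-1.16) and was the single gene of the group past 2-fold. Copz1, the zeta subunit of the adaptor layer, had 839 and 482 (-0.80, other probe set -0.01). Copg1, the gamma subunit, had 52.0 and 31.3 (-0.73), and its second probe set agreed at -0.92. Arcn1, the delta subunit, had 328 and 206 (-0.67), and all 3 of its probe sets were lower.

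The outer-layer COPI subunits did not share a common size of difference. Copa, the alpha subunit, had 221 and 128 (-0.79), but a dimmer probe set, 9.06 in AL and 14.7 in CR, stood at 0.69. Copb2, the beta-prime subunit, had 404 and 392 (-0.04), with 80.4 and 48.1 (-0.74) on its dimmer probe set. Cope, the epsilon subunit, had 46.6 and 44.7 (-0.06) on its only probe set.

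Promoters of the coat genes are shown here because they carry a motif known from ER stress research and because genes that carry it had different values. The letters TGACGTGG, the core of the unfolded protein response element to which the factors ATF6 and XBP1 are known to bind, were searched on both strands from 250 bases before to 50 after each RefSeq start site (GRCm38.p6). Of the 58 genes, 46 had a promoter entry, 3 of them with 2 starts, and 5 of the 46 (10.9%) held the motif, against 1.14% of 9769 measured protein-coding genes and 0.714% of all 27025 genes with an entry. The share was 10% among ER chaperone and disulfide isomerase genes and 3.94% among other secretory pathway genes. The 5 were Copb1, Copb2, Sec23a, Sec24d and Kdelr3. The sequences below read 5′ to 3′ along the gene, with the match in capitals, and Copb1 and Copb2 hold it on the opposite strand, as CCACGTCA.
Copb1, chr7:114254681-114254930, minus strand, 250 bases up to the start site: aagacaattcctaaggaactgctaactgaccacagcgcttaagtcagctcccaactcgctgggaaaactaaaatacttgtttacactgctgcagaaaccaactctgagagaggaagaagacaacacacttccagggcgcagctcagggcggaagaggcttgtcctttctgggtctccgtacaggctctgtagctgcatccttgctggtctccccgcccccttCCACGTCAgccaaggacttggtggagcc
Sec24d, chr3:123267246-123267495, plus strand, 250 bases up to the start site: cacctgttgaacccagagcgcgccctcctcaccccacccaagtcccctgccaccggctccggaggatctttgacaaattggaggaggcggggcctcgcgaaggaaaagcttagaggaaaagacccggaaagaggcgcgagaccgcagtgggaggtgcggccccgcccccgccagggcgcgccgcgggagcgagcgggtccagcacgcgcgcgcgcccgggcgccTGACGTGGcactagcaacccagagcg
Copb2, chr9:98563482-98563731, plus strand, 250 bases ending with the first transcribed base: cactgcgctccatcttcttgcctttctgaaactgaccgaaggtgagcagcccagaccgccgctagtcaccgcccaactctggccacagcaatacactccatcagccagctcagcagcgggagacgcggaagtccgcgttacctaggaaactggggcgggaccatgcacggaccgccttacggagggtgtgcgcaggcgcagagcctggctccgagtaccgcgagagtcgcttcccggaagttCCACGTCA

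The match lies from 28 to 21 bases before the start in Copb1, from 26 to 19 before it in Sec24d, and begins 7 bases before it in Copb2. These genes stood at -1.16, -0.68 and -0.04, and the other holders Sec23a and Kdelr3 at 0.18 and -0.27. The dimmer Copb2 probe set, however, stood at -0.74, close to Sec24d. Kdelr3, whose value is also the median of the 5, was below the intensity limit in CR. The median of the 5 was -0.27, against -0.58 for the 40 measured genes whose window lacks the letters. These medians leave out Ssr2, Tram1, Spcs3 and Ostc, which were at least 2-fold lower and had no promoter entry, and the difference between them was not tested. The shorter core ACGTG, which lies within this motif, was present in 28 of 46 promoters (60.9%), against 28.2% of measured protein-coding genes, 55% of the chaperone genes and 41.7% of the other secretory genes. The core CCACG, which overlaps the reverse strand of the motif, was present in 31 (67.4%), against 50%, 90% and 66.1% in the same order. Genes with and without ACGTG had medians of -0.58 and -0.56, and with and without CCACG of -0.59 and -0.44. The longer ER stress elements ERSE and ERSE-II, which both contain CCACG, were in 0 of the 46 windows, against 0.194% and 0.0819% of measured protein-coding genes, and ERSE was in 7 of 20 promoters (35%) of ER chaperone and disulfide isomerase genes. A match or its absence in these windows says nothing of binding.

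Cargo receptors were lower in 8 of 9 measured genes, with a median of -0.54 and 2 genes at least 2-fold lower. Tmed3, of the p24 family that helps to form vesicles, had 76.7 in AL and 28.1 in CR (-1.45), while its dimmer probe set had 11.2 on both arrays. Its relative Tmed10 had 101 and 67.6 (-0.59). Tmed2, also of this family, was not measured, with 3.97 and 4.32 on its 1 probe set. Lman2, a lectin that carries glycoproteins, had 114 and 44.5 (-1.36), with another probe set at -0.25.

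Lman1 and Mcfd2 together form the receptor for coagulation factors V and VIII. They stood at -0.62 (669 and 437) and -0.48 (739.5 and 529). The 5 measured Lman1 probe sets ran from -0.63 to 0.31, and 3 of them were below 0. The lowest was below the intensity limit in CR. Surf4, a receptor for several secreted proteins, had 648 and 445 (-0.54), and all 5 of its probe sets were lower, from -1.22 to -0.12. The KDEL receptors, which return chaperones that have escaped to the Golgi, differed less. Kdelr1 had 487 and 537 (0.14), Kdelr2 had 178 and 158 (-0.18, other probe set -0.14), and Kdelr3 had 8.13 and 6.74 (-0.27), the CR value being below the intensity limit.

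The 6 role groups lay close together, with medians between -0.73 and -0.54, and each group held genes near 0 beside genes past 2-fold, except that no signal peptidase gene lay above -0.42. With 1 array per diet and few genes per group these medians cannot be put in an order. The 7 genes above 0 were Srp9, Sec63, Sec23a, Kdelr1, Dad1, Srp19 and Sar1b, none above 0.32, and all 7 were below 0 when the arrays were scaled on hybridisation control spikes. That scaling placed all 56 genes below 0, and it also moved the median of all measured genes by -1.02 with all spikes and by -0.37 with the spike cre alone. The median of the members stayed 0.56 below that of all genes in both, since a shift is common to every gene.

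**Figure D3:**
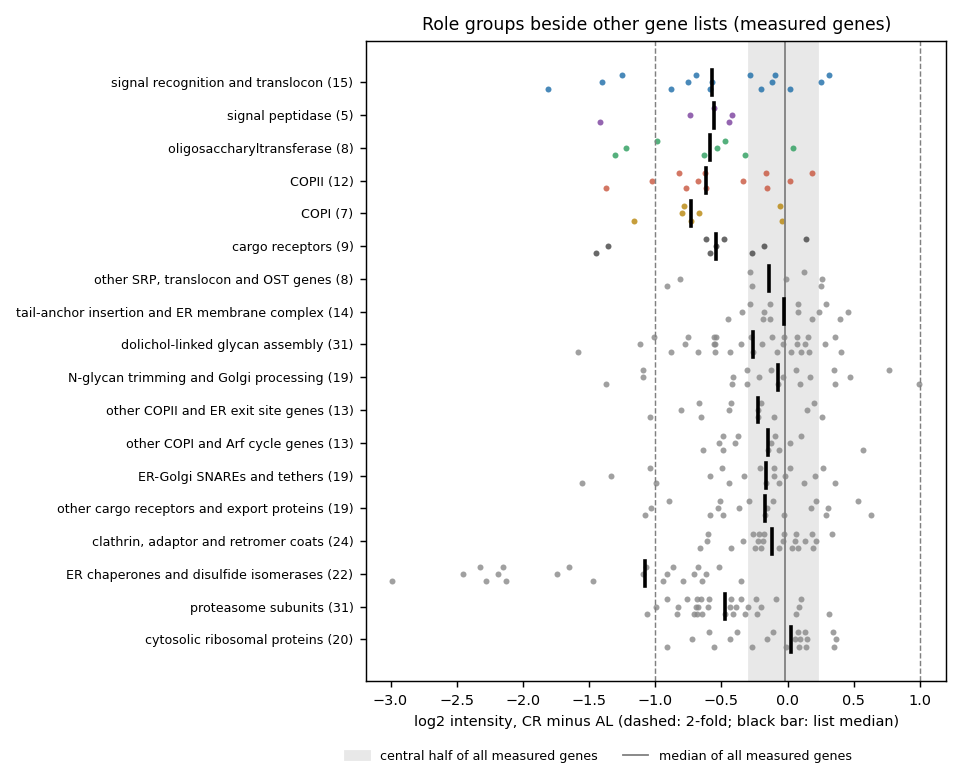
Differences in log2 intensity, CR minus AL, of the measured genes (1 point each) of the 6 role groups, of 9 lists of related genes and of 3 compared lists, with the number of genes in brackets. Black bars are list medians, the grey band runs between the quartiles of all measured genes, and dashed lines mark 2-fold. The role group medians, from -0.73 to -0.54, lie to the left of the band, those of the other trafficking and glycosylation lists lie within it, and that of the ER chaperones is at -1.08.

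Other genes of the secretory pathway, which were not members, lay between the members and the array as a whole. Over 8 lists with 136 measured genes the median was -0.17, and 12 (8.82%) were at least 2-fold lower, against a background of 2.79%. None was at least 2-fold higher (background 1.80%). Of the 136, 66.9% lay below 0 against 52.1% of all measured genes, and 18.4% were at least 1.5-fold lower against 9.49%. Among other SRP, translocon and OST genes the median was -0.14 over 8 genes, with Ost4, a small OST subunit, at -0.91 (139 and 73.9) and Srpr, the alpha subunit of the SRP receptor, at -0.82 (306 and 174). None of these 8 reached 2-fold.

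A few of the genes that build and trim the sugar tree were at least 2-fold lower. Among 31 measured genes that supply and assemble the dolichol-linked precursor, the median was -0.27 and 10 lay above 0. Of the 31, 3 (9.68%) passed 2-fold downwards, against a background of 2.79%. Gmppb, which makes GDP-mannose, had 64.6 in AL and 21.5 in CR (-1.59), and Dpagt1, which adds the first sugar to dolichol, had 51.0 and 25.4 (-1.01). Gfpt1, the entry enzyme of the hexosamine pathway, had 250.2 and 115 (-1.12), but its other probe set stood at 0.41. Among 19 genes of N-glycan trimming and Golgi processing, the median was -0.07 and 8 lay above 0, while 3 (15.8%) passed 2-fold downwards. These were the Golgi branching enzyme Mgat2 at -1.37, the sialyltransferase St6gal1 at -1.10 (other probe set -0.03) and the ER glucosidase subunit Ganab at -1.09. The Golgi mannosidase Man2a1, named after its value was seen, was the highest of the list at 0.99, just within 2-fold.

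Other genes of the vesicle steps had list medians from -0.23 to -0.15. At least 2-fold lower were 15.8% of the ER-Golgi SNAREs and tethers and 10.5% of the further cargo receptors and export proteins. The further COPII and COPI lists had 7.69% and 0%, and the background was 2.79% of all measured genes. Among 13 further COPII and exit-site genes the median was -0.23, with the tether subunit Trappc1 at -1.04 and Tfg, which organises exit sites, at -0.80. Among 13 further COPI and Arf genes the median was -0.15 and none was 2-fold lower. In that list the GTPase Arf4 stood at -0.64 and the tether subunit Rint1 at 0.57, the latter close to the intensity limit. Of 19 ER-Golgi SNAREs and tethers, Bet1 (109 and 37.2, -1.55), the fusion regulator Scfd1 (22.1 and 8.74, -1.34) and Sec22a (8.79 and 4.27, -1.04) were at least 2-fold lower. The list's median was -0.16, and the CR value of Sec22a was below the intensity limit, so its fold is uncertain. Of 19 further cargo receptors and export proteins, Tmed7 (-1.08, probe sets from -1.49 to 0.23) and Ergic1 (-1.03) were at least 2-fold lower, with a median of -0.17.

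Set beside its neighbours, the translocation, glycosylation and coat machinery had a median between those of the ER chaperones and of the rest of the pathway. ER chaperones and disulfide isomerases had a median of -1.08, with 12 of 22 genes at least 2-fold lower. In order of size these were Manf (-2.99), Pdia3 (below the limit in CR, other probe set 0.13), Creld2, Pdia6, Hspa5, Calr, Sdf2l1, Pdia4, Dnajb11, Hyou1, Hsp90b1 and P4hb (-1.07). Proteasome subunits were close to the members on several measures. Their median was -0.48, 87.1% lay below 0 against 87.5% of the members, and 15 of 31 (48.4%) were at least 1.5-fold lower against 51.8%, although 1 of 31, Psmb7 at -1.06, passed 2-fold, followed by Psmb2 just within it. Cytosolic ribosomal proteins had a median of 0.02 over 20 genes, none past 2-fold, with Rps19 at -0.91 and Rps14 at -0.72. These differences between lists were not tested, since no test over 1 array per diet is possible. Of 10 genes for factors that act on ER secretory genes, 2 were at least 2-fold lower, Xbp1 at -1.45 (probe sets from -3.33 to -0.41) and Creb3l2, a factor known to drive Sec23a, at -1.09 (34.5 and 16.2), while Sec23a itself stood at 0.18. The median of the 10 was -0.15, and Atf6 stood at 0.61 (48.9 and 74.5), with probe sets from -0.07 to 0.61.

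Markers of liver cell types and quality controls also differed between the pools. Hepatocyte markers had a median of -0.08 over 9 genes and summed to 64215 in AL and 57092 in CR. Of the secretory products among them, Fgb stood at -1.63 and Apob at -0.94, but the other Apob probe set stood at 0.20. All 7 measured Kupffer cell markers were below 0, with a median of -0.57, near that of the members, and 3 of the 7 at least 1.5-fold lower. The largest of these differences were those of Timd4 at -0.88 and Clec4f at -0.69. Cd68 was below the limit, and with it the 8 markers summed to 1973 in AL and 1745 in CR. All 4 measured neutrophil markers were below 0, with S100a8 at -2.29 and S100a9 at -1.75. Mpo was below the limit, and with it the 5 markers summed to 124 and 46.6.

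Other cell types gave mixed values. Of 7 stellate cell markers 6 were below 0, with a median of -0.23, Lrat at -0.76 and Col1a1 at -0.54, while their sum of 638 in AL and 709 in CR was carried by Reln (455 and 564). Of 4 B and plasma cell markers, Ighm stood at -1.23, Jchain at -0.76, Mzb1 at 0.03 and Sdc1 at 0.51. With Cd79a, Cd79b and Ms4a1, which were below the limit, the list summed to 1002 and 1149, carried by Sdc1 (692 and 988). Of 5 measured acinar markers, Cela1 stood at -1.41 and Cela3b at -0.24, and the other 3 lay between -0.09 and 0.14. With Cela2a, Cpa1 and Cpb1, which were below the limit, the acinar list summed to 180.0 and 116. Sinusoidal endothelium summed to 517 and 459, with Clec4g at -0.50 (other probe set 0.20) and Cdh5 at -0.42, and Pecam1 below the limit. Cholangiocyte markers summed to 55.7 and 54.8, with Krt7 at 0.32 and Epcam at -0.31, and Krt19 below the limit. The 6 beta-actin and Gapdh control probe sets lay between -1.61 and -0.67. The 3′ to 5′ ratio of beta-actin was 83.5 in AL and 89.7 in CR, and that of Gapdh 46.9 and 53.2. Signal was thus strongly weighted to the 3′ end on both arrays. The middle beta-actin probe set stood at -1.61 and the 3′ one at -0.73, so differences may depend on where a probe set lies. The part of these in the result was not tested.

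**Figure D4:**
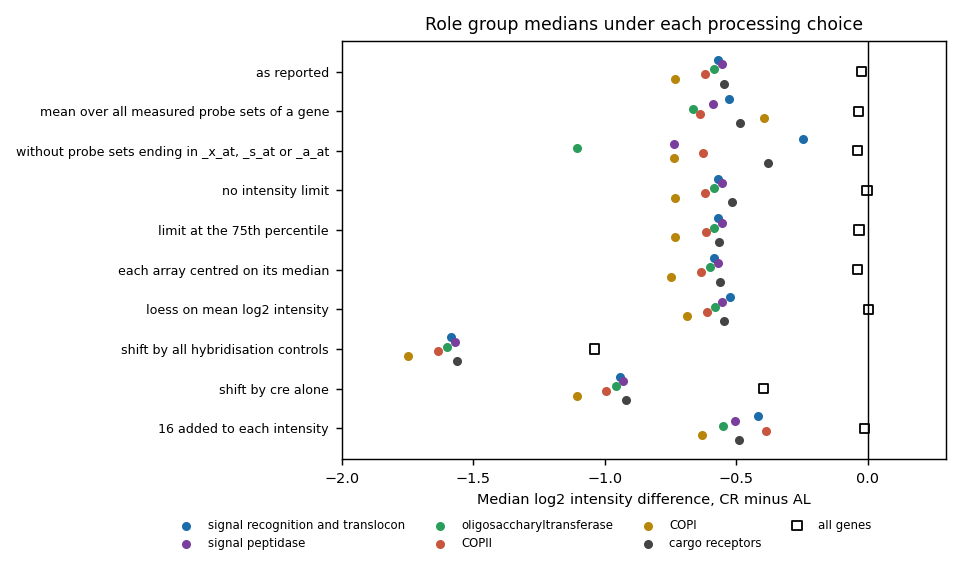
Median difference in log2 intensity, CR minus AL, of each role group (coloured points) and of all genes (open squares), as reported and under 9 other processing choices. Every group median lies below 0 and to the left of the median of all genes under each choice, and the groups spread most, from -1.10 to -0.24, without the probe sets that can match several transcripts.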

How the data were processed

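The deposited table held intensity values for 45101 probe sets in 1 column per RNA pool, on a linear scale, and the submitters' processing notes name RMA as the authors' method. RMA corrects background, normalizes arrays to each other and combines each probe set's probes, so a shift shared by most genes is removed. Its version and any later step are not given in the sources used here. Intensities were turned into log2 values and CR minus AL was taken. Genes were named from the platform annotation where a probe set had 1 symbol (34945 probe sets, against 932 with several and 9160 with none, besides 64 controls), and the 57 members with a probe set matched the RefSeq gene table by Entrez ID under the same symbol. The 2-fold threshold is a rule of size, not a test, and precision is limited by having 2 arrays. Members, lists and motifs were chosen with earlier results of these data known. Snd1 was removed from the list of tail-anchor insertion genes, where it did not belong, after its value was seen. Named in the text are members of every role group. Of each other list, the genes past 2-fold and the 2 of largest absolute difference are named. Krtcap2, Tmem258, Tusc3, Man2a1, Atf6, Reln, Mzb1, Sdc1 and markers below the limit were named after their values were seen. The code was tested on simulated data with planted differences. Alternatives were other ways to combine, leave out and limit probe sets, other scalings of the arrays (loess span 0.4), 16 added to intensities, and a 1.5-fold threshold. Promoter sequences are from RefSeq (GRCm38.p6), and no entry was found for Srp19, Srp68, Sec61a1, Ssr2, Tram1, Spcs3, Sec11c, Ostc, Arcn1, Kdelr2, Lman1 and Tmed2. Computation used Python 3.11.15 with pandas 2.3.3 and numpy 2.4.6, loess came from statsmodels 0.14.6, and figures from matplotlib 3.10.9.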

Additional observations from a re-analysis of the deposited data

How the results depend on the processing

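The count of 11 genes at least 2-fold lower was 6 with averaged probe sets (5 of the 11, and Spcs2), 6 with 16 added to each intensity (all among the 11), 29 at 1.5-fold (9.49% of all genes), 50 when arrays were scaled on the full set of hybridisation spikes (54.2% of all genes) and 24 with the spike cre (8.15% of all genes). No gene was 2-fold higher under any choice. With averaged probe sets the COPI median was -0.39. Without probe sets ending in _x_at, _s_at or _a_at the median was -0.24 for signal recognition and translocon and -1.10 for oligosaccharyltransferase, and 10 of 45 genes were 2-fold lower. These held 7 of the 11, while Ssr2, Sec31a and Tmed3 had no probe set left and Ssr4 was no longer 2-fold lower. Scaling on the full set of hybridisation spikes gave -1.60 for all members. It gave -1.58 for signal recognition and translocon, -1.57 for signal peptidase and -1.60 for oligosaccharyltransferase. For COPII, COPI and cargo receptors it gave -1.64, -1.75 and -1.56. Scaling on cre gave -0.96, -0.94, -0.93, -0.96, -0.99, -1.10 and -0.92 in the same order. These shifts follow from the construction of the scaling, and the cause of the other moves was not tested. Other medians stayed within 0.29, the median SD between probe sets of a gene, of the value reported. Under loess 10 of the 11 genes were 2-fold lower, and with no limit, the stricter limit (intensity 21.0) or median centring all 11. No paired analysis was possible because each group had 1 pool, and for the same reason no replicate could be left out.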

Other observations

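Coats that act after the Golgi had a median nearer to 0 than the member COPI (-0.73) and COPII (-0.62) genes. The further COPI and COPII lists, at -0.15 and -0.23, were also nearer to 0 than those members. Clathrin, its adaptors and the retromer sort cargo at the Golgi, plasma membrane and endosomes, and 24 of their genes were measured. None was at least 2-fold lower or higher, which over 24 genes is near the backgrounds of 2.79% and 1.80%. The median was -0.12. A dimmer Ap1g1 probe set stood at -1.07, while its brightest stood at 0.06. The largest differences were those of the retromer subunit Vps35 at -0.66 (another probe set 0.15) and the Golgi adaptor Gga3 at -0.61. Whether this list differs from the COPI and COPII genes was not tested.

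Genes that help to insert tail-anchored and some other membrane proteins into the ER were also near the array median. The 14 measured genes, of the GET pathway and the ER membrane complex (EMC), had a median of -0.03, with 7 below 0, 7 above and none at least 1.5-fold either way. Emc1, the large luminal subunit of the complex, had 102 in AL and 139 in CR (0.45), although 1 of its 3 measured probe sets stood at -0.06. Mmgt1, another subunit, was as far from 0 on the other side, with 65.0 and 47.5 (-0.45).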
